A study of Mus musculus with 12 samples.

Results

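The arrangement of 2 histone marks, H3K79me1 and H3K79me2, was described in reprogramming mouse embryonic fibroblasts that had received Cre recombinase to delete AF10. The members were the 4 peak lists labelled Cre, 2 H3K79me1 and 2 H3K79me2 libraries, out of 8 lists analysed and 12 samples in the series. They were chosen by the group labels alone, and peak positions on the 19 autosomes (mouse build mm9) were used. Each list is the set of regions in which 1 library was enriched over its input.

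The Cre cells were labelled AF10 -/-, OSKM, rtTA, and had been infected with the adenovirus Ad5-CMV-Cre. The control cells were labelled AF10 fl/fl, OSKM, rtTA, carried unrecombined floxed alleles and had received Ad5-CMV-Empty. Both groups therefore carried an adenoviral vector, the reverse tetracycline transactivator (rtTA) and the OSKM reprogramming factors, and both received doxycycline at 2 µg/mL from 2 days after the virus. Chromatin was taken on day 4 of reprogramming. Cells of both groups were grown over DR4 feeder fibroblasts, which the virus was not stated to have reached, and the share of feeder chromatin in each library was not tested. The labels do not say whether replicates were separate cultures, so the spread between them may be purely technical. Loss of AF10 could not be checked in peak lists, since no gene model of mm9 was used here.

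DOT1L is the enzyme that methylates lysine 79 of histone H3, within the globular core of the nucleosome, and it adds methyl groups one at a time. AF10 (Mllt10) is a cofactor that binds DOT1L and favours the higher methylation states. H3K79me2 is known to lie over the first part of transcribed genes, and H3K79me1 over the same genes with a wider spread.

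One Cre library stood apart from the others. H3K79me1 Cre replicate 1 held 115940 autosomal peaks over 59.5 Mb (2.41% of the autosomes), and H3K79me1 Cre replicate 2 held 12047 peaks over 1.85 Mb (0.0748%). H3K79me2 Cre replicates 1 and 2 held 75276 and 120630 peaks over 47.5 and 49.2 Mb (1.92% and 1.99%). H3K79me1 Cre replicate 2 also had the narrowest peaks, with a median of 126 bp against 338 bp in its partner and 351 and 231 bp in the H3K79me2 lists. The lists give no read counts, so depth is unknown and no counting interval was possible. The p settings recorded in the peak names also differed, 0.001 for H3K79me1 and 0.0001 for H3K79me2. A difference between the marks therefore cannot be told apart from that setting. Each result below is given for every pair of libraries, so that those resting on the short list can be seen.

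In the pairs without the short list, 43.8% to 64.5% of a list lay inside the other mark. H3K79me1 Cre replicate 1 shared 30.7 Mb with H3K79me2 Cre replicate 1, which was 51.5% of the H3K79me1 length and 64.5% of the H3K79me2 length. With H3K79me2 Cre replicate 2 it shared 26.1 Mb, 43.8% and 53.0% of the 2 lengths. These overlaps were 26.8 and 22.0 times those of lists placed independently on the autosomes. The short H3K79me1 list was inside H3K79me2 to a larger share, with 67.0% of its length in replicate 1 and 68.9% in replicate 2 (34.9 and 34.6 times chance). In the other direction, only 2.61% and 2.59% of the length of H3K79me2 replicates 1 and 2 lay inside the short list.

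As deposited, lists of different marks overlapped about as much as lists of the same mark. The 2 H3K79me2 Cre lists shared 28.6 Mb, 60.2% of replicate 1 and 58.1% of replicate 2, or 30.2 times chance. The Jaccard index, shared over combined length, was 42.0% for this pair, 40.1% for H3K79me1 replicate 1 with H3K79me2 replicate 1, and 31.5% with H3K79me2 replicate 2. The 2 H3K79me1 Cre lists shared 1.05 Mb, which was 56.7% of replicate 2. As a percent of the shorter list, the 4 overlaps between marks ran from 53.0% to 68.9%, around the 2 same-mark values. In the control libraries the 4 overlaps between marks ran from 38.2% to 53.0%, and both same-mark values were higher, at 60.7% and 76.0%. Whether this order differs between Cre and control was not tested. These shares depend on list length. With each list cut to its strongest 1.85 Mb, the 2 H3K79me2 Cre lists shared 44.2%, pairs of different marks 5.77% to 15.5% and the 2 H3K79me1 Cre lists 6.14%.

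**Figure D1:**
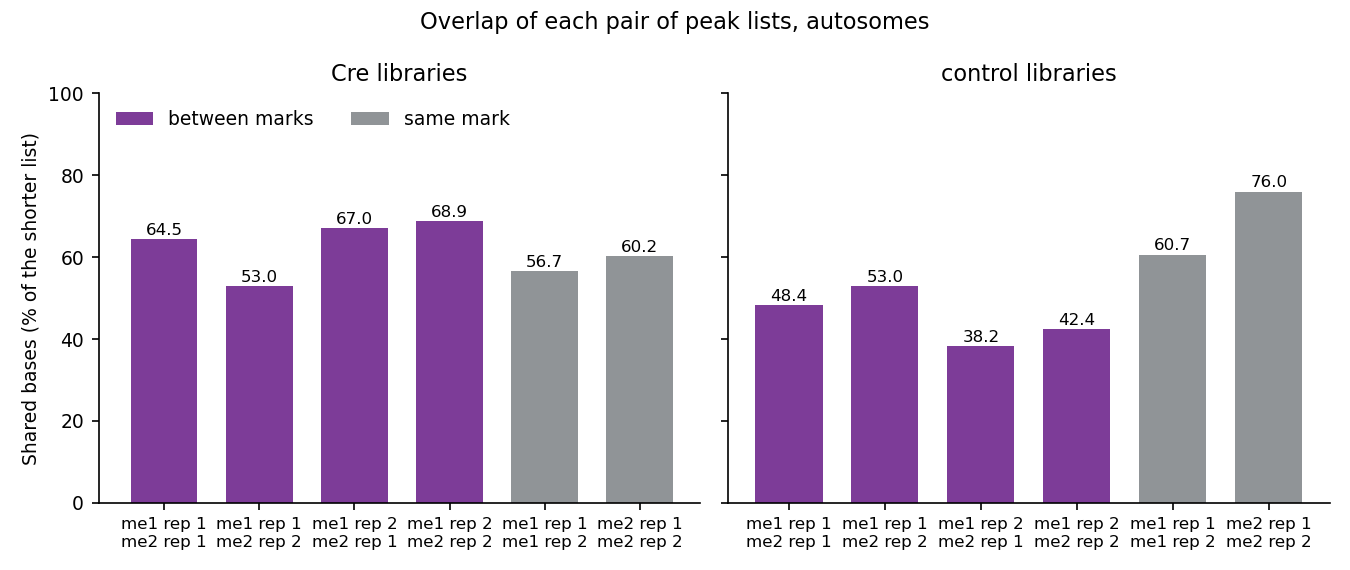
Shared bases of each pair of autosomal peak lists, as a percent of the shorter list of the pair, in the 4 Cre lists (left) and the 4 control lists (right); purple bars pair H3K79me1 with H3K79me2 and grey bars pair 2 libraries of 1 mark. In Cre the purple bars (53.0% to 68.9%) stand level with the grey ones, and in the control they stand below them.

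Overlap between the marks was found on every autosome. In each of the 4 pairs of Cre lists, 19 of 19 autosomes had more H3K79me1 length inside H3K79me2 than their cover would give by chance. For the replicate 1 lists the share ran from 47.2% on chromosome 6 to 54.0% on chromosome 8, with a median of 51.7%. Chromosome 6 was also lowest against H3K79me2 replicate 2, at 40.1%, and chromosome 15 highest, at 45.8%. The lowest chromosome against H3K79me2 replicate 1 thus lay above the highest against replicate 2. For H3K79me1 Cre replicate 2 the chromosomes spread more than the libraries, from 61.1% to 73.1% in H3K79me2 replicate 1 and from 62.9% to 73.7% in replicate 2, with medians of 67.7% and 69.8%.

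All 4 Cre lists together covered 92.1 Mb. Of these, 39.5% lay in at least 1 list of each mark, 26.03% in H3K79me1 lists alone and 34.5% in H3K79me2 lists alone. The control lists covered 167.6 Mb, with 26.8% shared, 56.0% H3K79me1 alone and 17.2% H3K79me2 alone. Between the groups the larger single-mark part was therefore H3K79me2 in Cre and H3K79me1 in control, a description that follows the lengths of the lists. Bases found in both H3K79me1 Cre lists were few, 1.05 Mb, and 94.0% of them lay in at least 1 H3K79me2 Cre list and 78.4% in both. Of the 28.6 Mb found in both H3K79me2 Cre lists, 72.8% lay in H3K79me1 replicate 1 and 3.74% in H3K79me1 replicate 2.

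For a test over libraries, the share of each list inside the other mark was averaged over the 2 libraries of that mark. It was 47.6% and 67.9% in H3K79me1 Cre replicates 1 and 2, and 33.6% and 27.8% in H3K79me2 Cre replicates 1 and 2. The groups did not overlap, with means of 57.8 ± 14.4% for H3K79me1 and 30.7 ± 4.08% for H3K79me2 (SD, n = 2). The difference of 27.1 percentage points gave p = 0.333 in the exact two-sided permutation test, the smallest that 2 against 2 libraries allow. Within 1 pair both shares have the same numerator, so their order is the order of the list lengths. Without H3K79me1 Cre replicate 2 the difference was -11.1 points, so its direction rested on the short list.

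The same measure in the control lists went the other way, at 22.9 ± 5.57% for H3K79me1 and 43.0 ± 0.434% for H3K79me2 (SD, n = 2), a difference of -20.1 points. The difference between Cre and control was 47.2 points (exact two-sided permutation p = 0.0556, the smallest that 36 arrangements give). It did not pass 0.05, and with every list reduced to the same covered length it was -0.0013 points, as that reduction forces the 2 shares of a pair to be nearly equal. Without H3K79me1 Cre replicate 2 it was 9.01 points (exact permutation p = 0.833), and without H3K79me1 Cre replicate 1 it was 85.5 points.

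H3K79me1 that lay outside H3K79me2 was mostly close to it. Domains were formed by joining the peaks of a list across gaps of up to 1 kb, and the distance of each H3K79me1-only base to the nearest H3K79me2 domain was taken. Of the 28.9 Mb of H3K79me1 Cre replicate 1 outside the peaks of H3K79me2 Cre replicate 1, 20.3% lay in gaps inside a domain and a further 36.3% within 1 kb of one. Another 22.6% lay from 1 to 5 kb away, 15.0% from 5 to 50 kb and 5.85% beyond 50 kb. The median distance was 689 bp, against 126908 bp for all autosomal bases outside those peaks.

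The other pairs had the same form. The bases of H3K79me1 Cre replicate 1 had a median distance of 504 bp from H3K79me2 Cre replicate 2, against 19293 bp for all bases. The medians for H3K79me1 Cre replicate 2 were 525 bp from H3K79me2 replicate 1 and 267 bp from H3K79me2 replicate 2, over 0.609 and 0.576 Mb. In all 4 pairs the H3K79me1-only bases were far nearer to H3K79me2 than other bases outside it. Within 5 kb lay 79.1% and 86.8% of the H3K79me1-only bases of replicate 1 and 76.5% and 86.4% of those of replicate 2, against 8.23% and 20.7% of all bases. H3K79me2 replicate 2 had 72920 domains and replicate 1 had 35412, and the part of their number and spacing in the background was not tested.

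H3K79me2-only bases also lay close to the long H3K79me1 list, and closer in replicate 1 than in replicate 2. H3K79me2 Cre replicate 1 had 16.9 Mb outside H3K79me1 Cre replicate 1, at a median distance of 64 bp, with 43.7% in gaps of H3K79me1 domains and 97.2% within 5 kb. H3K79me2 Cre replicate 2 had 23.1 Mb outside it, at a median of 440 bp, with 76.0% within 5 kb and 11.9% beyond 50 kb. Against 14.1% of all bases within 5 kb, both lists lay close to H3K79me1, but replicate 2 held a distant part that replicate 1 had at 0.745%. Against the short H3K79me1 list the medians were 3948 and 5529 bp, and 55.3% and 48.1% lay within 5 kb, where all bases gave 3.33%.

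**Figure D2:**
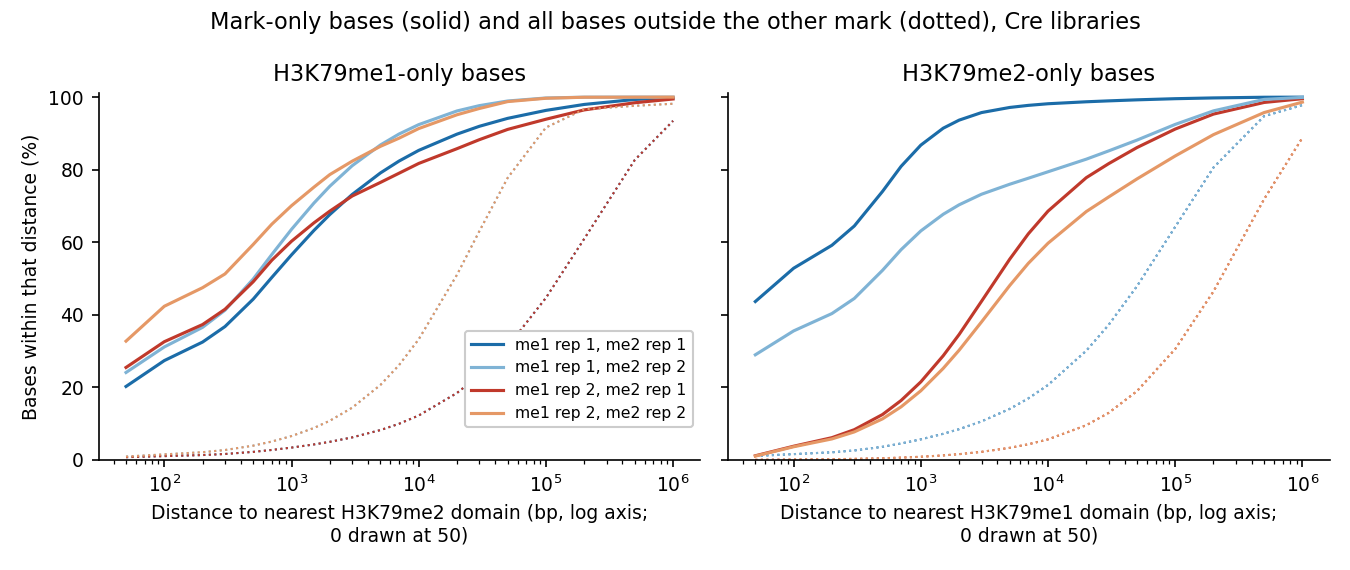
Cumulative percent of bases (y) by distance to the nearest domain of the other mark (x, bp, log axis, with bases in gaps drawn at 50) for H3K79me1-only bases (left) and H3K79me2-only bases (right) of each pair of Cre lists; dotted lines give all autosomal bases outside the other mark's peaks. The solid H3K79me1-only lines pass 50% between 267 and 689 bp, and the dotted lines do so at 19293 and 126908 bp.

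Averaged per library, the share of mark-only bases within 5 kb of the other mark was 83.0% and 81.5% in H3K79me1 Cre replicates 1 and 2, and 76.2% and 62.0% in H3K79me2 Cre replicates 1 and 2. The means were 82.2 ± 1.06% and 69.1 ± 10.1% (SD, n = 2), and the difference of 13.1 points gave p = 0.333 (exact permutation). Both H3K79me1 values lay above both H3K79me2 values, but without H3K79me1 Cre replicate 2 the difference was -3.62 points. The control lists gave 81.0 ± 3.86% and 73.7 ± 2.60% (SD, n = 2), a difference of 7.26 points, and Cre and control differed by 5.81 points (exact two-sided permutation p = 0.611). With every list at the same covered length, the difference was -39.6 points in Cre and -45.3 points between Cre and control (exact permutation p = 0.0556). The direction of both differences thus depended on how much of each list was used. At that length 78.1% and 68.0% of H3K79me2-only bases of replicates 1 and 2 lay within 5 kb of H3K79me1 Cre replicate 2. Near H3K79me1 Cre replicate 1 it was 28.9% and 21.5%, and H3K79me1-only bases had 5.79% to 14.0%. The Cre lists then kept from 715 to 12047 peaks, and no background share was computed at this length.

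Which bases counted as H3K79me1-only depended on the H3K79me2 library. Of the bases of H3K79me1 Cre replicate 1 outside H3K79me2 replicate 1, 18.2% lay inside H3K79me2 replicate 2. Of those outside H3K79me2 replicate 2, 29.4% lay inside replicate 1. When bases in either H3K79me2 Cre list were removed, 23.6 Mb (39.7%) of H3K79me1 Cre replicate 1 and 0.405 Mb (21.9%) of replicate 2 were left. What was left still lay close to H3K79me2, with medians of 449 and 313 bp, and 0.312 and 0.0059 Mb were farther than 50 kb from both lists.

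Bases with H3K79me1 alone in Cre were listed less often in the controls than bases with both marks. Of the 23.6 Mb of H3K79me1 Cre replicate 1 in neither H3K79me2 Cre list, 59.4% lay in H3K79me1 control replicate 1 and 21.7% in H3K79me1 control replicate 2. In the H3K79me2 controls the shares were 1.89% in replicate 1 and 19.5% in replicate 2. The bases shared with H3K79me2 in Cre had higher shares in all 4 controls, at 78.0%, 39.8%, 20.8% and 68.6% in the same order. In percentage points the gap between shared and single-mark bases was widest in H3K79me2 control replicate 2, which covers 2.83% of the autosomes. In proportion it was largest in H3K79me2 control replicate 1 (20.8% against 1.89%), which covers 0.637%.

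H3K79me1 Cre replicate 2 had 39.4% and 49.3% of its single-mark bases in H3K79me1 control replicates 1 and 2, and 16.4% and 37.1% in the H3K79me2 controls. Its shared bases had 67.2%, 64.7%, 52.9% and 88.3%, again higher in each control. For H3K79me2 Cre replicate 1, bases in neither H3K79me1 Cre list were 16.7% and 56.2% in the H3K79me2 controls and 57.0% and 31.4% in the H3K79me1 controls. H3K79me2 replicate 2 gave 15.7%, 50.1%, 40.0% and 26.9% in that order. The bases these H3K79me2 lists shared with H3K79me1 in Cre had 77.7% and 40.0% (replicate 1) and 76.2% and 41.6% (replicate 2) in the H3K79me1 controls, which cover 4.76% and 2.16% of the autosomes. Bases with H3K79me2 alone in Cre were thus listed as H3K79me1 in the controls less often than shared bases, and more often than autosomal bases as a whole.

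The cover of 1 mark fell with distance from the edges of the other mark's domains. H3K79me1 Cre replicate 1 covered 50.0% of the bases in the outermost 250 bp inside H3K79me2 Cre replicate 1 domains, and 61.6% at 4000 to 5000 bp inside. Outside the domains it covered 23.6% of the first 250 bp, 9.24% at 1000 to 1500 bp, 3.02% at 4000 to 5000 bp and 0.702% at 15000 to 20000 bp. H3K79me1 thus passed across the border of H3K79me2 domains and thinned out over several kb.

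In the replicate 1 pair H3K79me2 fell more steeply around H3K79me1 domains. H3K79me2 Cre replicate 1 covered 10.1% of the first 250 bp outside H3K79me1 Cre replicate 1 domains, 2.13% at 1000 to 1500 bp, 0.214% at 4000 to 5000 bp and 0.0295% at 15000 to 20000 bp. Inside them its cover was 27.2% in the outermost 250 bp and 65.3% at 4000 to 5000 bp. The inward rise was larger for H3K79me2 than for H3K79me1 in these lists, whose peak numbers and lengths differ. Only wide domains reach 4000 to 5000 bp from an edge, so the rise mixes domain width with position. In H3K79me2 Cre replicate 1 domains that class held 2.80 Mb, against 13.2 Mb in the outermost 250 bp. The parts of width and position in the rise were not tested. The steeper fall of H3K79me2 was not kept with H3K79me2 replicate 2. There H3K79me1 replicate 1 went from 13.6% in the first 250 bp outside to 0.239% at 15000 to 20000 bp, and H3K79me2 around H3K79me1 from 10.3% to 0.328%. With H3K79me1 replicate 2, H3K79me2 went from 53.0% and 51.3% to 3.35% and 3.35% over the same distances, and H3K79me1 from 0.479% and 0.263% to 0.0117% and 0.00502%. The contrast between the marks was therefore seen in 1 of the 4 pairs.

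**Figure D3:**
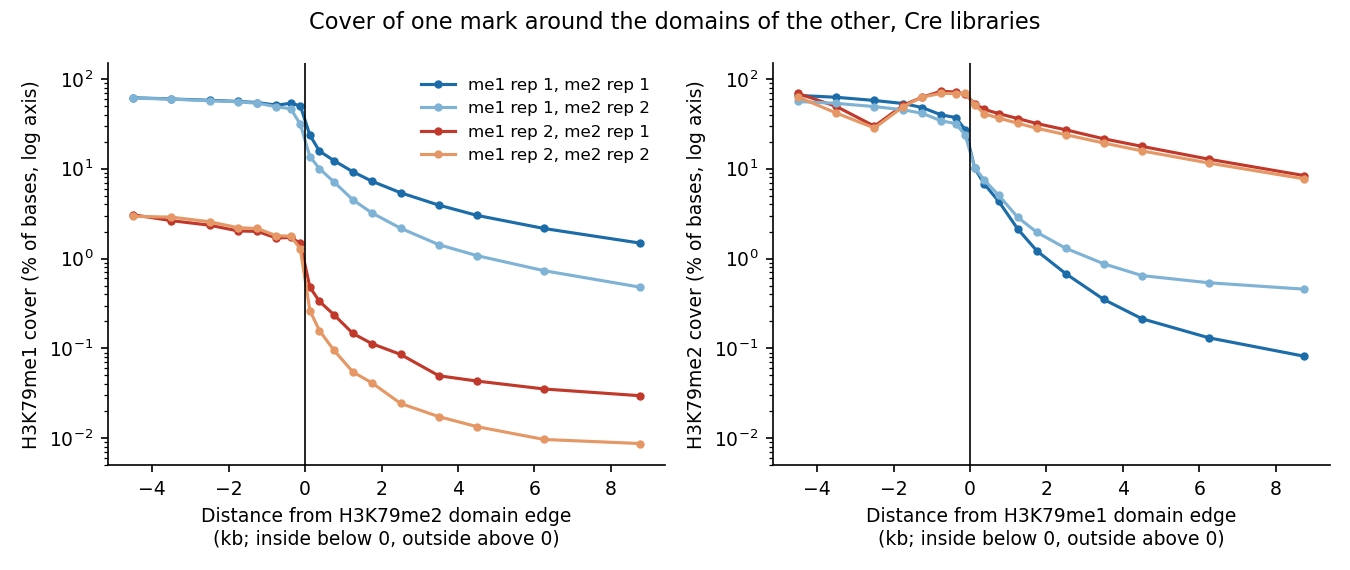
Percent of bases covered by H3K79me1 around the edges of H3K79me2 domains (left) and by H3K79me2 around the edges of H3K79me1 domains (right) in each pair of Cre lists, against distance from the edge in kb (inside below 0, outside above 0; y on a log axis). For the replicate 1 lists, H3K79me1 falls from 50.0% to 23.6% across the edge and H3K79me2 from 27.2% to 10.1%.

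Gaps within the domains of 1 mark were often filled by the other. H3K79me1 Cre replicate 1 covered 31.7% of the 18.5 Mb of gaps in H3K79me2 Cre replicate 1 domains and 35.95% of the 22.4 Mb in those of replicate 2. Chance placement would give 1.19% and 1.38%. The other H3K79me2 library filled similar shares of the same gaps, 25.4% of those of replicate 1 and 35.0% of those of replicate 2. Chance placement of that library would give 0.850% and 0.781%. The long H3K79me1 list thus filled as large a percent of the H3K79me2 gaps as the second H3K79me2 library did, or larger. Its chance shares were also higher, and relative to chance the second H3K79me2 library filled more.

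In the other direction H3K79me2 Cre replicates 1 and 2 filled 27.8% and 25.3% of the gaps of H3K79me1 replicate 1, and 70.7% and 67.8% of those of H3K79me1 replicate 2. H3K79me1 Cre replicate 2 filled 0.841% and 0.840% of the H3K79me2 gaps. The means per library were 17.3 ± 23.3% for H3K79me1 and 47.9 ± 1.93% for H3K79me2 (SD, n = 2), and the difference of -30.6 points gave p = 0.333 (exact permutation). Without H3K79me1 Cre replicate 2 it was 7.28 points. The control lists differed by 26.6 points the other way, and the difference between Cre and control was -57.1 points (exact two-sided permutation p = 0.111). Without H3K79me1 Cre replicate 2 it was -19.3 points, and without H3K79me1 Cre replicate 1 it was -95.0 points.

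Peaks of both marks were next joined into common domains across gaps of up to 1 kb. The replicate 1 lists gave 59890 domains, of which 37.9% held both marks, 52.5% H3K79me1 alone and 9.68% H3K79me2 alone. Domains with both marks were wide, with a median of 2173 bp, and took up 86.3% of all domain length. Domains of 1 mark were short, with medians of 251 bp for H3K79me1 and 207 bp for H3K79me2. With H3K79me2 replicate 2 in place of replicate 1 there were 91940 domains, 27.2% with both marks, 30.7% with H3K79me1 alone and 42.1% with H3K79me2 alone. Which single-mark class was larger therefore changed with the H3K79me2 library, and in both pairs domains with both marks held over 80% of domain length (86.3% and 83.0%).

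Most single-mark bases sat inside domains that also held the other mark. For H3K79me1-only bases the share was 64.7% and 72.5% in the pairs of H3K79me1 Cre replicate 1 with H3K79me2 replicates 1 and 2, and 62.0% and 72.2% in those of replicate 2. For H3K79me2-only bases it was 91.1% and 67.1% with H3K79me1 replicate 1, and 54.0% and 45.0% with replicate 2. The single-mark part of each list was thus largely an extension or interruption of domains with both marks. The exception was H3K79me2 replicate 2 against the short H3K79me1 list, at 45.0%.

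Wider domains held both marks more often, and in the pairs without the short list bases with both marks took up more of their length. In the replicate 1 lists, 14.0% of 39913 domains under 1 kb held both marks, 67.7% of those of 1 to 2 kb, 93.6% of those of 2 to 5 kb and 99.7% of those of 5 to 10 kb. All of the 1485 domains of 10 to 20 kb and the 493 of 20 kb and over did. A wide domain has more room for a peak of each mark, so the share is expected to go up with width in any 2 lists.

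Cover by a single mark did not go up over all classes. H3K79me1 Cre replicate 1 covered 78.4% of the length of domains under 1 kb, and 72.0% of these domains held H3K79me1 alone. H3K79me2 Cre replicate 1 covered 23.7% of their length. The length of domains of 1 to 2 kb was covered to 49.4% by H3K79me1 Cre replicate 1, and that of domains of 20 kb and over to 62.7%. H3K79me2 Cre replicate 1 covered 25.7% and 68.5% of the same classes. In this pair of lists, called at different p settings, H3K79me1 thus covered more of domains up to 10 kb and H3K79me2 more of wider ones. With H3K79me2 replicate 2 the H3K79me2 cover went from 24.2% to 59.3% and H3K79me1 from 43.5% to 61.6%, so H3K79me2 also went up more but did not pass H3K79me1 in any class. Bases covered by both marks went from 13.3% to 50.4% of domain length in the first pair and from 9.37% to 42.7% in the second. In the pairs with H3K79me1 Cre replicate 2, H3K79me1 covered 2.00% to 2.12% at 1 to 2 kb and 3.46% to 3.71% at 20 kb and over. In these pairs H3K79me2 replicates 1 and 2 covered 88.7% and 90.9% under 1 kb, and 80.0% and 74.5% at 20 kb and over.

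**Figure D4:**
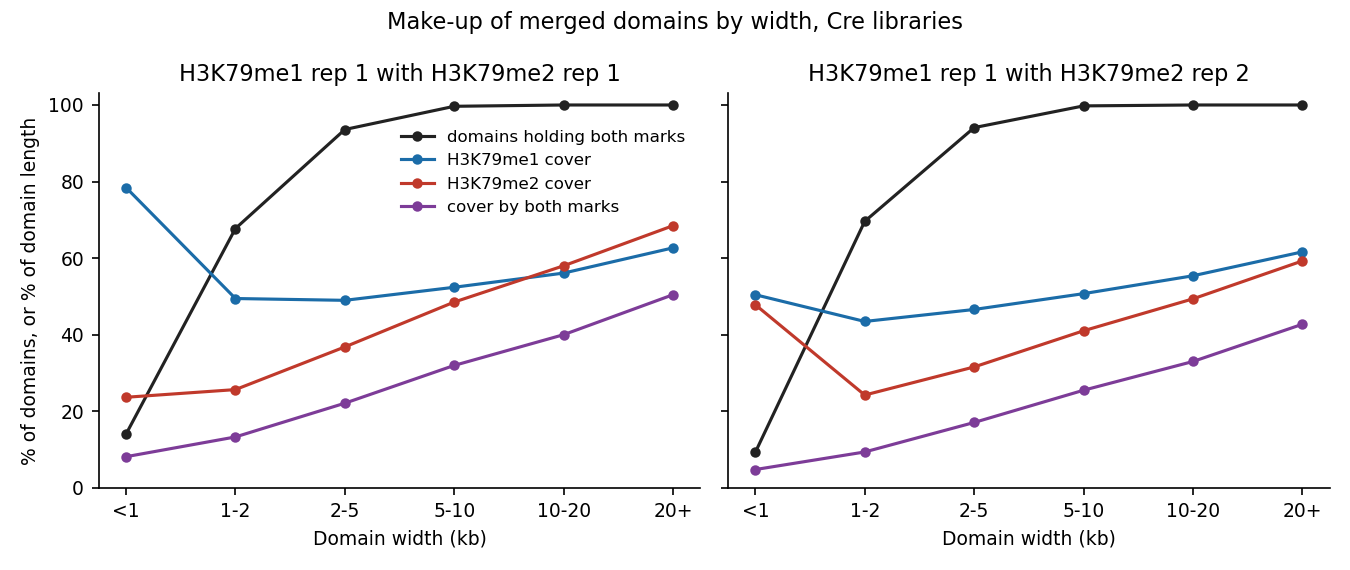
Make-up of domains by width (x, kb) for H3K79me1 Cre replicate 1 with H3K79me2 Cre replicate 1 (left) and 2 (right): percent of domains holding both marks (black), and percent of domain length covered by H3K79me1 (blue), H3K79me2 (red) and both (purple). H3K79me2 cover goes from 25.7% at 1 to 2 kb to 68.5% at 20 kb and over on the left, and from 24.2% to 59.3% on the right.

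Both marks put slightly less than an even share of their bases in the middle of the domains, though not under every choice of domains. In domains of at least 1 kb with both marks, the core was the central 50% of the width and the flanks the outer 25% at each end, so an even spread puts 50% of a mark in the core. In the 17076 such domains of the replicate 1 lists, 48.3% of H3K79me1 and 49.8% of H3K79me2 lay in the core. H3K79me1 replicate 1 with H3K79me2 replicate 2 gave 48.3% and 49.2%. H3K79me1 replicate 2 gave 48.3% and 49.1% with H3K79me2 replicate 1, and 48.2% and 48.8% with replicate 2. H3K79me1 was the more peripheral mark in all 4 pairs, with differences of -1.55 to -0.537 points. The excess at the ends was narrow. In the replicate 1 lists H3K79me1 covered 64.7% of the outermost 5% of the width at each end and 52.5% of the innermost, and H3K79me2 53.5% and 50.8%. With H3K79me1 replicate 2, H3K79me2 covered 83.8% and 80.8% of the outermost 5% and 71.6% and 64.4% of the innermost. A domain ends on a peak by construction, and the part of peak number in the excess at the ends was not tested.

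Per library the core shares were 48.29% and 48.28% in H3K79me1 Cre replicates 1 and 2, and 49.5% and 49.0% in H3K79me2 Cre replicates 1 and 2. The groups did not overlap, and the difference of -0.955 points gave p = 0.333 (exact permutation). It was small against the choice of domains. It was 1.65 points with peaks of at least 500 bp and 0.475 points in domains of at least 5 kb. In domains of the control libraries it was 0.504 points. It was 2.70 points in domains of H3K79me2 alone and -12.4 points in domains of H3K79me1 alone. Whether the marks lay below 50% also depended on that choice. The means of H3K79me1 and H3K79me2 were 50.9% and 50.5% in domains of at least 5 kb. They were 50.5% and 51.1% in domains of all 4 Cre lists, and 52.2% and 51.7% in control domains. With joining gaps of up to 500 bp, 2 kb or 5 kb both means stayed below 50%. The control libraries gave 49.0 ± 1.45% and 48.7 ± 1.95% (SD, n = 2), which overlapped, and Cre and control differed by -1.25 points (exact two-sided permutation p = 0.5).

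Bases with both marks lay closer to the middle than bases with 1 mark. In the replicate 1 lists 51.6% of shared bases were in the core, against 42.7% of H3K79me1-only and 46.3% of H3K79me2-only bases. In the other 3 pairs shared bases had 50.6% to 51.5%, H3K79me1-only bases 40.0% to 44.7% and H3K79me2-only bases 45.3% to 49.1%. The order, shared bases above H3K79me2-only and these above H3K79me1-only, was the same in all 4 pairs, which share libraries. The last bases of a domain mostly hold 1 mark, which draws single-mark bases to the flanks.

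More domain ends lay on H3K79me1 than on H3K79me2 where the long H3K79me1 list was used. In the replicate 1 lists 57.7% of domain ends lay on H3K79me1 alone and 41.6% on H3K79me2 alone, and 49.4% of domains had 1 mark at each end. Ends drawn independently at those shares would give 48.0%. With H3K79me2 replicate 2 the end shares were 57.3% and 42.6%, and 52.1% of domains had 1 mark at each end, against 48.8% from independent ends. Domains with the marks at opposite ends were thus 1.47 and 3.31 points more frequent than independent ends would give. With H3K79me1 Cre replicate 2 the excess was 0.47 and 0.55 points, and every control pair also had an excess. Only domains with both marks were counted, and a domain of 1 separate peak of each mark must have opposite ends. Independent ends ignore this selection, so some excess follows by construction. Whether any excess remains beyond it was not tested.

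The mean positions of the marks within wide domains were close. In 5191 domains of at least 5 kb, the mean positions of H3K79me1 Cre replicate 1 and H3K79me2 Cre replicate 1 lay a median of 5.78% of the domain width apart, or 561 bp. H3K79me1 replicate 1 and H3K79me2 replicate 2 were 6.77% apart in 5412 domains. The 2 H3K79me2 libraries were 3.79% apart in 4477 domains, so the offset between marks was larger than that between H3K79me2 libraries. Pairs with H3K79me1 Cre replicate 2 gave 16.9% to 18.1%, and its few peaks per domain make a mean position uncertain. In the control lists pairs of different marks were 9.78% to 19.1% apart and pairs of the same mark 6.81% and 9.30%.

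Wide peaks touched the other mark more often, and the strongest peaks did so more often than the weakest. Of the peaks of H3K79me1 Cre replicate 1, 22.9% of those under 200 bp touched a peak of H3K79me2 Cre replicate 1, 40.4% of those of 200 to 500 bp, 75.1% of those of 500 to 1000 bp and 96.2% of the 12283 of at least 1 kb. A wider peak has more room to touch another. The authors' fold enrichment had a median of 1.83 in touching peaks and 1.68 in the rest. Ranked by the authors' p-value, 81.8% of the strongest 10% of peaks touched H3K79me2 and 33.0% of the weakest, but the lowest share, 23.5%, was near the middle of the ranking. The short H3K79me1 list showed this less. In H3K79me1 Cre replicate 2, 54.0% of the strongest 10% of peaks touched H3K79me2 replicate 1, against 49.1% of the weakest and 68.7% of all. For H3K79me2 replicate 2 these shares were 68.9%, 50.7% and 73.3%. The median fold was 1.90 in peaks that touched H3K79me2 replicate 1 and 1.89 in the rest. The strongest 10% of this list had a median width of 56 bp, against 148 bp in the weakest. In H3K79me2 Cre replicates 1 and 2 the median −log10 p was the same in peaks that touched H3K79me1 replicate 1 and in the rest, at 1.37 and 1.50. By rank, however, 91.2% and 61.3% of their strongest 10% of peaks touched it, against 58.0% and 41.0% of the weakest. The lowest shares, 57.2% and 31.2%, were again near the middle of the ranking. The part of peak width in these shares was not tested.

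The strongest peaks of each list were also compared at an equal covered length of 1.85 Mb, the length of the shortest list. These values were computed after the pair overlaps had been seen. Of the strongest part of H3K79me1 Cre replicate 1, 85.7% lay inside H3K79me2 replicate 1 and 78.3% inside H3K79me2 replicate 2, against 51.5% and 43.8% of the whole list. Of the strongest parts of H3K79me2 replicates 1 and 2, 71.7% and 61.4% lay inside H3K79me1 replicate 1, against 64.5% and 53.0%. Overlap of the strongest parts with each other was lower, and each is a small part of its list (1.85 of 59.5, 47.5 or 49.2 Mb in the long lists). Those of H3K79me1 replicate 1 and H3K79me2 replicates 1 and 2 shared 15.5% and 11.7% of their length. The strongest part of H3K79me1 replicate 1 thus lay within H3K79me2 to a larger share than its whole list. At this length the lists kept 2568 and 12047 H3K79me1 and 715 and 2529 H3K79me2 peaks, so their grain differed.

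The peak names record a letter or number for each library. Both replicate 1 lists carry the letter A in their peak names, H3K79me2 replicate 2 the letter B, and H3K79me1 replicate 2 neither. Peak edges at the same base were 1029 between the replicate 1 lists, 0.683% of the edges of the shorter list, and 0.120% to 0.223% in the other 5 pairs of Cre lists. The replicate 1 lists also had the largest overlap between the marks in Mb, and the part of a common source in it was not tested.

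The widest domains with peaks of all 4 Cre lists show the arrangement at single places. The widest spanned 146210 bp at chr8:111226086-111372295 (mm9). H3K79me1 Cre replicates 1 and 2 covered 73.9% and 2.24% of it, and H3K79me2 Cre replicates 1 and 2 covered 71.4% and 69.3%. The 3 long lists therefore filled it about equally, with core shares of 52.5%, 53.6% and 51.6% of their bases. In the controls H3K79me1 covered 72.3% and 34.1% and H3K79me2 23.7% and 70.5%.

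**Figure D5:**
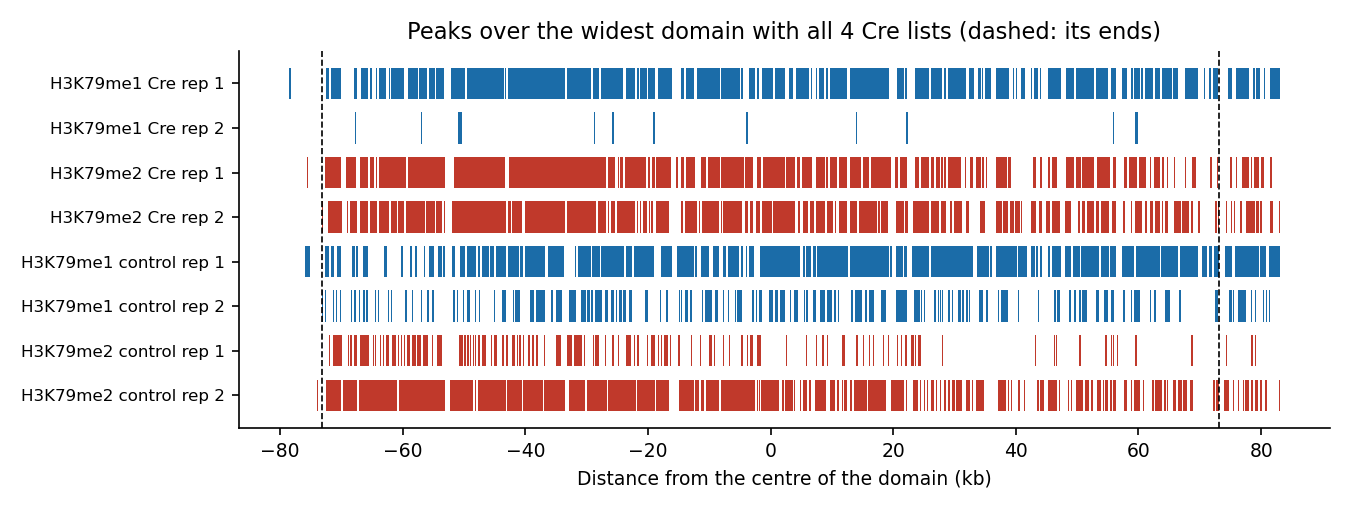
Peaks of the 4 Cre and 4 control lists (rows; blue H3K79me1, red H3K79me2) over the widest domain that holds all 4 Cre lists, by distance from its centre in kb; dashed lines mark its ends. The long Cre lists cover 69.3% to 73.9% of it, and H3K79me1 Cre replicate 2 covers 2.24%.

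The next 4 domains were chr15:61869229-62011531, chr2:52716661-52816656, chr1:191551818-191649938 and chr17:47277428-47368309. Over the 4 of them H3K79me1 Cre replicate 1 covered 65.6% to 79.1%, H3K79me2 replicate 1 66.1% to 80.0% and H3K79me2 replicate 2 53.7% to 73.5%. H3K79me1 Cre replicate 2 covered 2.72% to 5.25%. The domain on chromosome 2 differed in the placement of the marks, with 51.5% of H3K79me1 replicate 1 in its core and 43.5% and 43.6% of H3K79me2 replicates 1 and 2. In the other 3 domains the core shares of these lists ran from 48.8% to 54.4%.

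Places with 1 mark only in all 4 lists were of very different number. Runs in both H3K79me1 Cre lists and in neither H3K79me2 Cre list numbered 895, with a median of 50 bp and 62.3 kb in all. The widest, chr8:20003441-20003863, was 423 bp and lay 1 bp from an H3K79me2 domain. It was covered to 100% in H3K79me2 control replicate 1 and 59.1% in replicate 2. The next, chr8:20009985-20010389, was covered to 100% in both H3K79me2 controls. The third, chr4:155271836-155272195, lay 362 bp from H3K79me2 and was covered to 14.2% and 0% in those controls. So 2 of the 3 widest H3K79me1-only places were H3K79me2 peaks in both controls.

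Runs in both H3K79me2 Cre lists and in neither H3K79me1 Cre list numbered 45548, with a median of 126 bp and 7530 kb in all. They thus outnumbered the runs of H3K79me1 alone, which were bounded by the short list. The widest were chr8:11000424-11003684 (3261 bp), chr9:41390985-41393473 (2489 bp) and chr10:5956712-5959090 (2379 bp). In H3K79me1 control replicate 1 all 3 had 0% cover, and in H3K79me1 control replicate 2 they had 17.5%, 0% and 0%. In the H3K79me2 controls they had 44.1%, 73.5% and 58.7% in replicate 1 and 89.9%, 100% and 100% in replicate 2. These 3 places were thus H3K79me2 with little or no listed H3K79me1 in both groups of cells, and they lay 1, 242 and 1 bp from H3K79me1 domains of the Cre lists.

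Runs in all 4 Cre lists numbered 5951, over 0.821 Mb, with a median of 110 bp. The widest were chr8:19891056-19892898 (1843 bp), chr4:149887774-149889142 (1369 bp) and chr8:19785371-19786489 (1119 bp). Their control cover was 100% in H3K79me1 replicate 1, 20.9%, 83.0% and 69.4% in H3K79me1 replicate 2, and 83.3% to 100% in the H3K79me2 lists. The size of this set was bounded by the 1.85 Mb of the short list.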

How the data were processed

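ChIP-seq of both marks gave 2 Cre and 2 control libraries each, and 4 libraries of RNA polymerase II were left out because they are not part of this comparison. MACS2, Bowtie2, bedtools, deepTools, HOMER and SAMtools 1.2 appear in the submitters' processing notes, with mm9 and hg19 as builds and no roles. Each deposited list holds broad peaks of 1 library. Its peak names record p settings that differ between the marks, 0.001 in H3K79me1 and 0.0001 in H3K79me2 names. The authors' −log10 p-values had medians of 1.29 and 2.20 in H3K79me1 Cre replicates 1 and 2. In H3K79me2 Cre replicates 1 and 2 the medians were 1.37 and 1.50. All of these are weaker than either setting, so how the settings apply to the listed peaks is unknown. The deposited columns give positions and, as the authors' own values, fold enrichment (a ratio), a −log10 p-value, a −log10 q-value and a score; the fold and the −log10 p-value were used only within a list, and the score and q-value were not used.

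Overlaps were counted in bases. The autosomes were taken to end at the last peak, 2472 Mb in all. Tests were exact two-sided permutation tests of 1 value per library, with 6 arrangements in a group and 36 between groups. Each value was averaged over the 2 libraries of the other mark, so the values share lists and are not independent. Labels were exchanged with the values held fixed, although another label would change the partner lists. The p-values are therefore descriptive. Regions were named by width: the 5 widest domains and the 3 widest runs of each set. Members, lists and measures were chosen with earlier results of these data known. The interval functions were tested on simulated data and matched direct counting in all 200 pairs of lists. The reference gene table is of another build (GRCm38.p6), so no gene or sequence is given. Python 3.11.15, NumPy 2.4.6, pandas 2.3.3 and Matplotlib 3.10.9 were used.

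The replicate numbers come from the sample titles, and the peak names carry the same letter only for the replicate 1 lists, so the numbers were not taken to pair the marks. Alternatives were a replicate block, each library left out, equal covered length, the stronger peaks only, a minimum peak width, the X chromosome, other gaps, distances and domain definitions.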

Additional observations from a re-analysis of the deposited data

Results flagged for a closer look

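The share of length inside the other mark was higher for H3K79me1 than for H3K79me2 in Cre and lower in control, which made a difference of 47.2 points (exact two-sided permutation p = 0.0556). Without H3K79me1 Cre replicate 2 it was 9.01 points (exact permutation p = 0.833). Both H3K79me1 lists lay above both H3K79me2 lists in Cre and below them in control. The share of the other mark's gaps filled showed the opposite pattern, with -57.1 points between Cre and control (exact two-sided permutation p = 0.111), and -19.3 points without that library (exact permutation p = 0.389). Covered length moved with both results. The shortest list was an H3K79me1 library in Cre (1.85 Mb) and an H3K79me2 library in control (15.7 Mb).

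Peaks on the X chromosome, which the comparisons did not use, covered 0.358% of it in H3K79me1 Cre replicate 1. H3K79me1 control replicate 2 covered 0.116% and H3K79me1 control replicate 1 listed 0 peaks there. H3K79me1 Cre replicate 2 covered 0.0065%, below that control, and the H3K79me2 Cre lists covered 0.299% and 0.517%. On the autosomes the same Cre lists covered 2.41%, 0.0748%, 1.92% and 1.99%.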

How the results depend on the processing

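Of 100 alternatives, 85 kept the direction and 15 reversed it, and no p fell below 0.05, which neither design can reach (lowest p 0.333 within Cre and 0.0556 between groups by exact permutation). Of the 85, at least 3 were fixed by construction. These were 2 other merging gaps for the 5 kb measure, and equal length for the share inside in Cre. Equal length forces that difference to about 0 (0.0048 points). For the share of bases inside, any alternative that keeps the order of list lengths also keeps the direction within each pair. Such alternatives are weak checks. With each library left out, the difference in share inside the other mark ran from -11.1 to 65.4 points, that within 5 kb from -3.62 to 29.8 points and that in gaps from -68.4 to 7.28 points. Each reversal among these came without H3K79me1 Cre replicate 2. The Cre minus control difference ran from 9.01 to 85.5 points in share inside and from -95.0 to -19.3 points in gaps, and that within 5 kb ran from -10.9 to 22.5 points. The last was negative without H3K79me1 Cre replicate 2 (-10.9), H3K79me2 Cre replicate 2 (-5.71) or H3K79me2 control replicate 1 (-6.06). At equal covered length the difference within 5 kb was -39.6 points in Cre and -45.3 points between groups, and that in share inside the other mark was -0.0013 points between groups. Against both libraries of the other mark joined, the difference within 5 kb was -1.71 points. The core difference was 1.65 with peaks of at least 500 bp, 0.149 with gaps of up to 500 bp, 0.475 in domains of at least 5 kb, 0.504 in control domains and 2.70 in domains of H3K79me2 alone. The cause of these reversals was not tested, apart from the equal length, which makes the 2 shares of a pair nearly equal by construction.

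With the replicate block, which pairs same-numbered libraries, the Cre differences were 26.6 points in share inside, 10.1 within 5 kb, -1.04 in core share and -31.5 in gaps, and the Cre minus control differences were 42.6, 4.39, -1.94 and -53.9. It reversed none of these 8. Depth is unknown, so a base absent from a list is not shown to lack the mark.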

Other observations

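A stretch of chromosome 8, chr8:19785371-20010389 (mm9, 225 kb), held 4 of the 9 widest runs named above. It was singled out after those runs had been seen. H3K79me1 Cre replicate 2 had 57 peaks there and covered 13.2% of it, against 0.112% of the whole chromosome, a ratio of 118. H3K79me1 Cre replicate 1 covered 9.96%, and H3K79me2 Cre replicates 1 and 2 covered 7.89% and 7.93%, each 3.43 to 3.45 times the cover of the chromosome. In the controls the ratios were 3.31 and 7.14 for H3K79me1 and 15.2 and 3.16 for H3K79me2. The highest ratio of each group was thus that of its shortest list. Whether the stretch holds repeated sequence was not tested.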
